A study of Mus musculus with 12 samples.

Results

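The 9 genes Bok, Iyd, Amigo2, Rgs14, Pcp4, Wfs1, Fibcd1, Pou3f1 and Mpped1 mark the pyramidal cell fields of the hippocampus: Bok and Iyd mark CA3, Amigo2, Rgs14 and Pcp4 mark CA2, and Wfs1, Fibcd1, Pou3f1 and Mpped1 mark CA1. They were chosen by symbol, with earlier results of these data known. Each was measured by 1 transcript cluster, a set of probes along the transcript. Thus 9 of the 19938 genes with a cluster of their own are described here. Hippocampal RNA came from 6 Madison (MSN) mice and 6 hsd:ICR (ICR) mice, each on its own Mouse Gene 1.0 ST array. All 12 were adult males. MSN is a line with a manic phenotype that was bred from ICR, and by the study's methods it is now inbred, its ancestors having been selected for wheel running and for maternal defense. ICR is the outbred stock of origin, with a normal phenotype. MSN is 1 line kept in its own colony, so line and colony cannot be told apart. The tissue was macrodissected hippocampus, with all subfields together in each sample.

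The hippocampus passes signals along a chain of cell fields. Granule cells of the dentate gyrus contact CA3 pyramidal cells through mossy fibers, CA3 cells project to CA1 through the Schaffer collaterals, and the small CA2 field lies between them and is known for its role in social memory. Each field expresses genes that the neighboring fields express weakly, and these genes are used to draw the borders between fields in tissue sections. In whole hippocampal RNA, fewer cells of a field and less RNA of its marker per cell cannot be told apart.

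Bok was the only marker gene whose higher array signal in MSN hippocampus passed in limma after adjustment, and this call was lost in some settings. Its promoter is shown beside that of Iyd, the other CA3 marker. Promoter sequences of RefSeq, build GRCm38.p6, were found for 7 of the 9 genes (all but Rgs14 and Pou3f1), each with 250 bases before and 50 bases after the transcription start. The window of Bok lies on the plus strand at chr1:93685325-93685624 and that of Iyd on the plus strand at chr10:3540024-3540323. Capitals mark matches, on either strand, to TATAAA, the core of a TATA box, to GGGCGG, the GC box, or to CANNTG, the E-box core.
Bok: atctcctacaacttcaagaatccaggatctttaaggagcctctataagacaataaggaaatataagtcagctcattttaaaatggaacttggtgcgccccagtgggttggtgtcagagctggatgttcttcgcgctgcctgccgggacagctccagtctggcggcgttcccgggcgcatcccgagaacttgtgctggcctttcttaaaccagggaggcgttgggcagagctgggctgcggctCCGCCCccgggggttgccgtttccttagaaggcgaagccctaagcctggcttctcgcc
Iyd: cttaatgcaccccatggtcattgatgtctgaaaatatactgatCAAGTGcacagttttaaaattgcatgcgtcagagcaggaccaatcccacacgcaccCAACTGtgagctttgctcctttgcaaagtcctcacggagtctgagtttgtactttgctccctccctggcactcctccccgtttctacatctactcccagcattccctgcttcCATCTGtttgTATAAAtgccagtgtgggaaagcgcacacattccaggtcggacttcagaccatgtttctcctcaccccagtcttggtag
The Bok window held 1 match to GGGCGG, whose first base is at position -8 with the start counted as 0, and 0 matches to TATAAA or CANNTG. The Iyd window held 1 match to TATAAA, at position -29, 3 matches to CANNTG and 0 to GGGCGG. Over the first listed promoter of each of 27025 genes, 35.9% held GGGCGG, 14.2% held TATAAA and 72.1% held CANNTG. The octamer ATGCAAAT, bound by POU proteins such as the product of Pou3f1, was in 1.75% of these promoters and in 0 of those of Bok and Iyd. GC content was 56.3% in the Bok window and 49.0% in the Iyd window, against a median of 52.7% over all promoters. No overlap between motifs occurred in these 2 windows.

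Bok, which encodes a BCL-2 family protein of the endoplasmic reticulum with a part in apoptosis, was higher in every MSN mouse than in any ICR mouse. Its intensity, the linear signal that the PLIER method summarizes over the probes of a cluster, ran from 995 over a median of 1080 to 1221 in the 6 MSN mice and from 724 over a median of 854 to 949 in the 6 ICR mice. The strains therefore did not overlap. The mean was 1091 ± 84.4 in MSN mice and 849 ± 91.9 in ICR mice (SD, n = 6 each), a 1.28-fold difference with a 95% interval of 1.16 to 1.43. On the log2(intensity + 16) scale the fold change was 0.36 (standard error 0.0704, limma, adjusted p = 0.0305, with Benjamini-Hochberg adjustment over 23410 clusters). A two-sided exact permutation test over the mice gave p = 0.00216, the smallest that 6 mice against 6 allow. The size of the difference was stable, from 0.32 to 0.39 over 12 left-out arrays, but its call was not. The adjusted p ended above 0.05 without any 1 of 7 of the 12 arrays, up to 0.0753 (MSN replicates 1, 3 and 4 and ICR replicates 1, 3, 5 and 6). It was 0.0576 with all 35556 clusters tested and 0.0940 with the replicate number as a block. The study describes the array as designed to withstand sequence changes under its probes, but could not exclude that such changes affected some genes. Bok was not among the genes it tested by RT-qPCR.

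Iyd, which encodes the iodotyrosine deiodinase that recovers iodide in the thyroid, showed no such difference. Its intensity was 208 to 310 in MSN mice, with a median of 271, and 220 to 321 in ICR mice, with a median of 252. Iyd was dim: its means of 262 in MSN mice and 258 in ICR mice lay below the array medians, 270 to 298. The strains overlapped over most of the range, and the log2 fold change was 0.02 (95% interval -0.20 to 0.24, limma, adjusted p = 0.955). Iyd spread widely between mice, with a coefficient of variation of 14.8% in MSN mice and 15.0% in ICR mice, and the interval of its fold change, MSN over ICR, reached from 0.871 to 1.18.

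**Figure D1:**
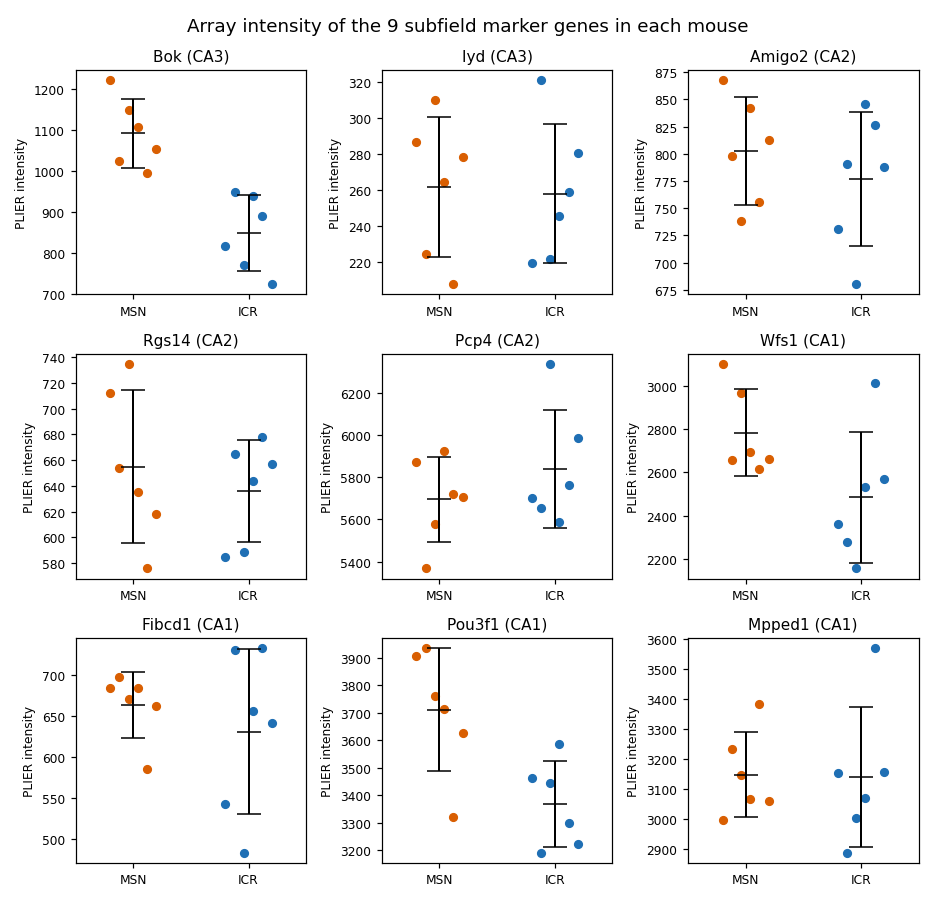
PLIER intensity of the 9 marker genes (vertical axes, linear, each with its own range that does not start at 0) in 6 MSN mice (orange, left) and 6 ICR mice (blue, right). Each point is 1 mouse, and black bars give mean ± SD. In Bok every MSN point lies above every ICR point, and in the other 8 genes the strains overlap.

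None of the 3 CA2 markers passed the test. Amigo2, a leucine-rich repeat adhesion protein, had an intensity of 738 to 868 in MSN mice (median 805) and of 680 to 846 in ICR mice (median 789). Its log2 fold change was 0.05 (95% interval -0.07 to 0.17, limma, adjusted p = 0.771). Rgs14, a regulator of G protein signaling that restrains synaptic plasticity in CA2 neurons, ran from 576 to 735 in MSN mice (median 644) and from 585 to 678 in ICR mice (median 651). The 2 groups again overlapped, with a log2 fold change of 0.04 (95% interval -0.09 to 0.17, limma, adjusted p = 0.831). Pcp4, a small calmodulin-binding protein, ran from 5368 to 5924 in MSN mice (median 5714) and from 5590 to 6336 in ICR mice (median 5732). It was the only marker with a fold change below 0, at -0.04 on the log2 scale (95% interval -0.12 to 0.05, limma, adjusted p = 0.754). Its coefficient of variation was 3.56% in MSN mice and 4.77% in ICR mice.

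The 4 CA1 markers had fold changes above 0 and none passed the adjusted test. Pou3f1, a POU-domain transcription factor, came closest, with 3321 to 3935 in MSN mice (median 3737) and 3192 to 3589 in ICR mice (median 3373). Only the lowest MSN mouse fell among the ICR mice. Its mean of 3711 ± 224 in MSN mice stood against 3369 ± 155 in ICR mice (SD, n = 6 each), a log2 fold change of 0.14 (standard error 0.0461, limma, unadjusted p = 0.00972, adjusted p = 0.217). The exact permutation test gave p = 0.0173 (two-sided).
Wfs1, which encodes the endoplasmic reticulum protein wolframin, read 2615 to 3101 in MSN mice (median 2678) and 2155 to 3015 in ICR mice (median 2447). All MSN mice lay above 5 of the 6 ICR mice, and ICR replicate 5 stood among the highest MSN mice. The log2 fold change was 0.17 (standard error 0.0727, limma, unadjusted p = 0.0368, adjusted p = 0.352, two-sided exact permutation test p = 0.0563).
Fibcd1, a receptor for acetylated sugars such as chitin, read 585 to 698 in MSN mice (median 677) and 483 to 733 in ICR mice (median 649). The ICR mice reached both below and above all MSN mice, and the log2 fold change was 0.08 (95% interval -0.11 to 0.28, limma, adjusted p = 0.741). Mpped1, which encodes a metallophosphoesterase-domain protein, read 2997 to 3384 in MSN mice (median 3107) and 2889 to 3569 in ICR mice (median 3114). Its log2 fold change was 0.01 (95% interval -0.10 to 0.11, limma, adjusted p = 0.978).

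Of the 9 markers, 1 was higher and 0 were lower in MSN mice, and 8 did not pass. The markers were chosen with earlier results of these data known, so their counts, here and below, are a description without a test. Of the 23410 clusters tested, 0.777% passed, 0.303% higher and 0.474% lower in MSN mice. Of the calls, 39.0% were higher in MSN mice, against 54.6% with quantile normalization and 56.4% with scaling to the same median. At an unadjusted p under 0.05 there were 3 of 9 (Bok, Wfs1 and Pou3f1), against 12.7% of all clusters. The strains did not overlap in 1 of 9, against 1.44% of all clusters, or 0.568% with all MSN mice higher. Fold changes lay above 0 for 8 of 9 markers, against 45.5% of all clusters, whose median log2 fold change was -0.01, against 0.01 with quantile normalization and 0.02 with scaling to the same median. The signs of Iyd and Mpped1 turned when single arrays were left out, and that of Mpped1 also with array weights. Between mice of 1 strain, 6 of the 9 markers spread more in ICR mice, as did 49.97% of all clusters. The ratio of the SDs on the log2 scale, ICR over MSN, was highest for Fibcd1 at 2.62 and lowest for Rgs14 at 0.70.

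**Figure D2:**
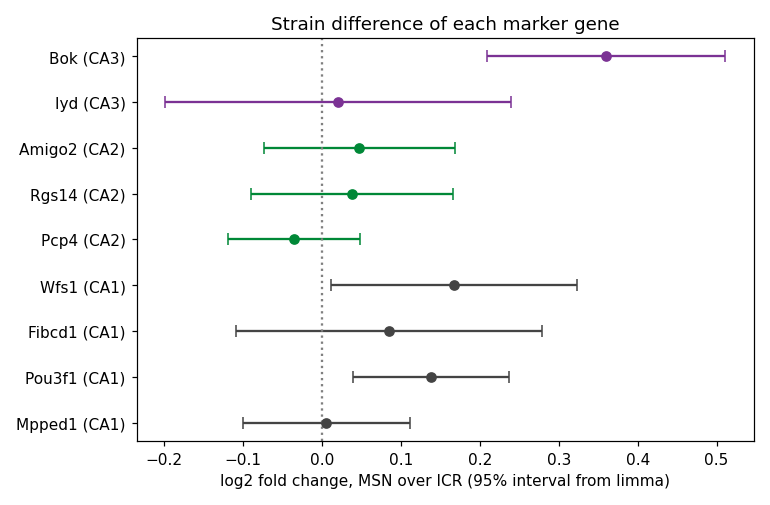
log2 fold change of each marker gene, MSN over ICR, on the log2(intensity + 16) scale (horizontal axis), with 95% intervals from limma and 6 mice per strain, colored by subfield. The intervals of Bok, Wfs1 and Pou3f1 lie above 0, and only Bok passed after adjustment.

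By subfield, the mean of the log2 values was higher in MSN mice by 0.19 for the 2 CA3 markers, by 0.10 for the 4 CA1 markers and by 0.02 for the 3 CA2 markers. These are descriptions without a test, since the means run over genes chosen with earlier results known. The CA3 mean was 9.11 ± 0.152 in MSN mice and 8.92 ± 0.145 in ICR mice (SD, n = 6 each), and nearly all of its difference came from Bok. The CA1 mean was 11.09 ± 0.0496 in MSN mice and 10.99 ± 0.104 in ICR mice, and the CA2 mean was 10.51 ± 0.0599 in MSN mice and 10.50 ± 0.0541 in ICR mice. For all 3 subfields the per-mouse means of the strains overlapped.
Set against each of the other 8 markers, Bok had the larger fold change, MSN over ICR. The differences below equal the gaps between the log2 fold changes given above, so they add no evidence of their own. These differences are a description without a test, since Bok was set against the others after it was seen to stand apart between the strains. As the log2 value of Bok minus that of the other gene, MSN minus ICR, the difference was 0.34 against Iyd. Against the CA2 markers Amigo2, Rgs14 and Pcp4 it was 0.31, 0.32 and 0.40, and against the CA1 markers Mpped1, Fibcd1, Pou3f1 and Wfs1 it was 0.35, 0.28, 0.22 and 0.19.

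Other genes known from the same subfields gave no call. Over all clusters 0.777% passed in limma and 12.7% had an unadjusted p under 0.05. Of 8 other CA3 genes, 0 passed in limma, and 1 reached an unadjusted p below 0.05. This was Cpne4, a copine that binds membranes in response to calcium, with 1781 ± 123 in MSN mice and 1616 ± 142 in ICR mice (SD, n = 6 each) and a log2 fold change of 0.14 (limma, adjusted p = 0.354). Nectin3, an adhesion protein, was at 0.09 (adjusted p = 0.407) and the kainate receptor subunit Grik4 at 0.12 (adjusted p = 0.472). The list had 6 of 8 genes above 0 and a median log2 fold change of 0.07. Relative to the mean of these 8 genes in the same mouse, Bok was higher in MSN mice by 0.29 on the log2 scale, a description without a test because it was set up after the values were seen. On this scale the values were -0.32 to -0.09 in MSN mice and -0.67 to -0.38 in ICR mice.
Of 13 other CA2 genes, 0 passed in limma and 2 reached an unadjusted p below 0.05. Actn2, an actin crosslinker of dendritic spines, had a log2 fold change of 0.16 (limma, adjusted p = 0.282). Avpr1b, the vasopressin receptor of CA2 cells, was at -0.09 (limma, adjusted p = 0.376). Of 7 other CA1 genes, 0 passed in limma and 0 reached an unadjusted p below 0.05, with Ccn3, a secreted matrix protein, at -0.10 and the mannosidase gene Man1a at 0.11.
Of 7 genes listed for pyramidal neurons, not all of them limited to these cells, 0 were at 0 on all arrays, 0 passed in limma and 2 reached an unadjusted p below 0.05. Neurod6, a transcription factor of pyramidal neurons, read 2726 ± 214 in MSN mice and 2459 ± 151 in ICR mice (SD, n = 6 each), a log2 fold change of 0.15 (limma, adjusted p = 0.285), and Bcl11b, another transcription factor, was at 0.11 (adjusted p = 0.361).

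**Figure D3:**
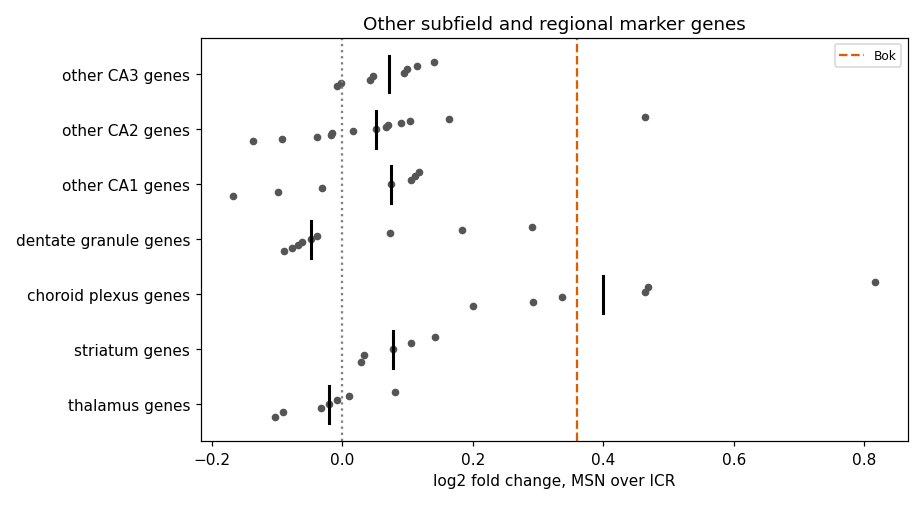
log2 fold change, MSN over ICR, of genes known from other subfields and regions (horizontal axis), 1 point per gene and 1 row per list, with the list's median as a black bar. The dashed line is Bok at 0.36, which no gene of the other CA3 and CA1 lists reaches. Sostdc1, the right-most point of the CA2 list, also stands in the choroid plexus list.

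Tissue that borders the hippocampus was examined by its own markers, since Pcp4 and Wfs1 are also expressed in striatum and Pcp4 in thalamus. Of 5 striatal genes limma called 0, all 5 were above 0, and their summed intensity was 4010 to 4846 in MSN mice and 3941 to 4276 in ICR mice. Of 7 thalamic genes limma called 0, 2 were above 0, and the sum was 3548 to 4150 in MSN mice and 3547 to 4180 in ICR mice. Of 6 choroid plexus genes limma called 0 and all 6 were above 0, with a median log2 fold change of 0.40. Their sum was 9341 to 23232 in MSN mice and 7673 to 23171 in ICR mice. In these 3 lists 0 genes had an unadjusted p under 0.05, against 12.7% of all clusters, and 0 genes were at 0 on all arrays. The part of such tissue in the values of the markers was not tested.

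Genes whose products work with those of the markers gave no call either, where 0.777% of all clusters passed in limma and 12.7% had an unadjusted p under 0.05. For Bok, 9 genes of the BCL-2 family and of its partners were measured, among them the IP3 receptor genes Itpr2 and Itpr3. limma called 0, 4 were above 0, and 1 had an unadjusted p under 0.05: Bak1, a pore-forming relative of Bok, had 417 ± 28.2 in MSN mice and 455 ± 18.9 in ICR mice (SD, n = 6 each) and a log2 fold change of -0.12 (limma, adjusted p = 0.286). For Iyd, 8 genes of thyroid hormone handling were measured and limma called 0, while Thrb, a thyroid hormone receptor, was at 0.19 (unadjusted p = 0.0113, adjusted p = 0.228). For Wfs1, 10 genes of endoplasmic reticulum stress were measured, limma called 0, and 7 were above 0. Cisd2, the gene of a second form of Wolfram syndrome in humans, was at -0.10 (limma, unadjusted p = 0.0192, adjusted p = 0.282).
For Rgs14, 6 genes of its G protein and Rap partners were measured and limma called 0, with Rap2a at -0.10 (unadjusted p = 0.0440, adjusted p = 0.374). For Pcp4, 7 genes of calmodulin and its binding proteins were measured, of which 0 passed in limma and 0 reached an unadjusted p below 0.05. Of 3 relatives of Pou3f1, limma called 0 and Pou3f3 was at 0.11 (unadjusted p = 0.0344, adjusted p = 0.343). The 2 relatives of Amigo2 and the 4 of Mpped1 and Fibcd1 held 0 calls and 0 genes at an unadjusted p under 0.05.

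The genes next to Bok on chromosome 1 were examined after the values of Bok were seen. Of the 16 protein-coding neighbors with a cluster of their own, 8 on each side, limma called 0, 9 were above 0, against 45.5% of all clusters, and 3 had an unadjusted p under 0.05, against 12.7% of all clusters. Whether the neighbors differed from other genes as a group was not tested. The 3 lay on the same side of Bok. Atg4b, a protease of autophagy and the second gene on that side, had 566 to 660 in MSN mice (median 603) and 492 to 559 in ICR mice (median 525). The strains did not overlap, and the log2 fold change was 0.20 (standard error 0.0459, limma, unadjusted p = 0.000677, adjusted p = 0.0629). It passed with a pseudocount of 64 (adjusted p = 0.0457), with quantile normalization (0.0345), with trended and robust eBayes (0.0431) and with clusters above the median mean only (0.0309).
D2hgdh, which encodes the mitochondrial D-2-hydroxyglutarate dehydrogenase, had 592 to 654 in MSN mice (median 613) and 514 to 601 in ICR mice (median 554). Its log2 fold change was 0.16 (limma, unadjusted p = 0.00133, adjusted p = 0.0863, two-sided exact permutation test p = 0.00433). It also passed in some settings, namely quantile normalization (adjusted p = 0.0424), scaling to the same median (0.0366), clusters above the median mean only (0.0406) and without ICR replicate 2 (0.0397). Neu4, a sialidase, had 398 to 481 in MSN mice (median 442) and 361 to 416 in ICR mice (median 389). Its log2 fold change was 0.17 (limma, unadjusted p = 0.00242, adjusted p = 0.117, two-sided exact permutation test p = 0.00433). The genes directly beside Bok were closer to 0, with Stk25, a serine/threonine kinase, at -0.05 and Thap4 at 0.06.

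**Figure D4:**
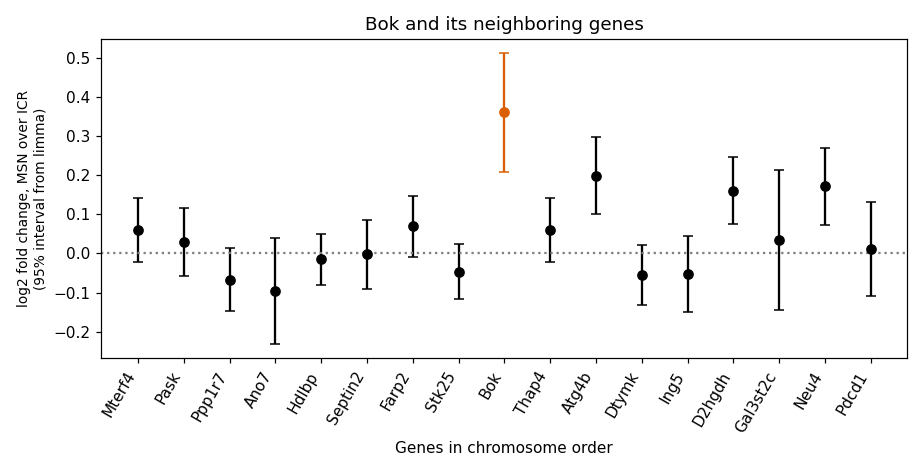
log2 fold change, MSN over ICR, with 95% intervals from limma (vertical axis), of Bok (orange) and of the 8 nearest measured protein-coding genes on each side (black), in chromosome order but not to distance. Bok at 0.36 is the highest, and Atg4b, D2hgdh and Neu4 have intervals above 0.

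Across single mice, with the mean of each strain removed, the markers were compared in pairs. The 10 pairs within a subfield had a median Pearson r of 0.12, over a range of -0.28 to 0.58, and the 26 pairs between subfields a median of 0.31, over a range of -0.53 to 0.77. This is a description over 12 mice, and all pairs share the same arrays. Of the 36 pairs, 6 had an unadjusted p under 0.05 in a permutation test within strain, all of them between subfields, and 0 passed after Benjamini-Hochberg adjustment. The highest r was that of Iyd and Rgs14 (r = 0.77, permutation p = 0.00749, adjusted p = 0.0763; Spearman rho = 0.78, permutation p = 0.00706, adjusted p = 0.184). Their r was 0.72 without the 2 mice farthest from the median of Iyd, 0.76 within MSN mice and 0.80 within ICR mice. Amigo2 and Fibcd1 had r = 0.77 (permutation p = 0.00848, adjusted p = 0.0763; rho = 0.73, permutation p = 0.0153, adjusted p = 0.184), with 0.71 without the 2 farthest mice.
Rgs14 and Fibcd1 had r = 0.70 (permutation p = 0.00221, adjusted p = 0.0763; rho = 0.64, permutation p = 0.0238, adjusted p = 0.215), with 0.78 without the 2 farthest mice. Rgs14 and Wfs1 also had r = 0.70 (permutation p = 0.00700, adjusted p = 0.0763; rho = 0.72, permutation p = 0.0102, adjusted p = 0.184), with 0.72 without the 2 farthest mice. Bok and Iyd, the CA3 pair, had r = 0.53 (permutation p = 0.0915, adjusted p = 0.360; rho = 0.52, permutation p = 0.0934, adjusted p = 0.343), and 0.71 without the 2 farthest mice. Pcp4 had a negative Pearson r to each of the other 8 markers, the lowest with Fibcd1 (r = -0.53, permutation p = 0.126, adjusted p = 0.379; rho = -0.46, permutation p = 0.156, adjusted p = 0.469), which was -0.13 without the 2 farthest mice. This sign was not general: without the 2 farthest mice r was 0.10 with Iyd, 0.16 with Amigo2 and 0.10 with Wfs1, and within MSN mice it was 0.46 with Bok, 0.28 with Iyd, 0.55 with Amigo2 and 0.24 with Wfs1. Wfs1 and Mpped1 had r = 0.50 (permutation p = 0.164, adjusted p = 0.436; rho = 0.26, permutation p = 0.451, adjusted p = 0.728), with 0.26 without the 2 farthest mice, -0.57 within MSN mice and 0.90 within ICR mice.

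**Figure D5:**
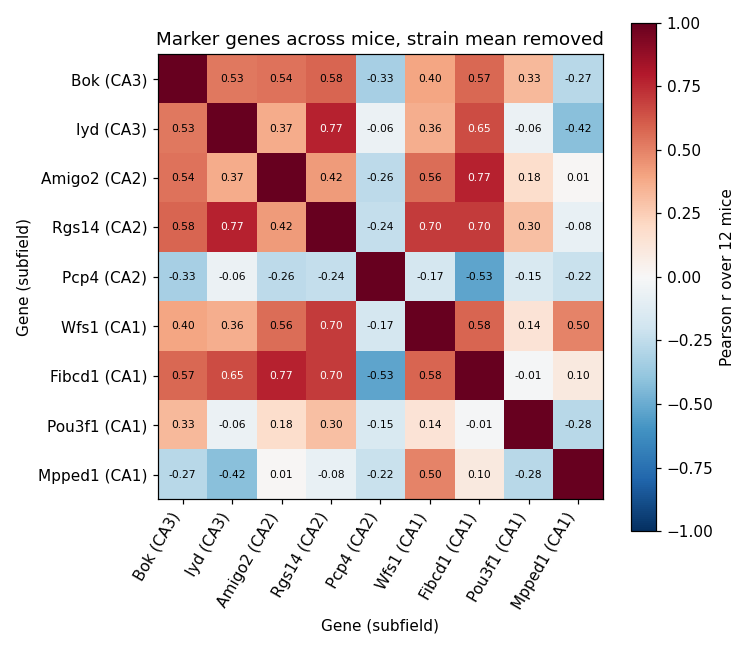
Pearson r between the marker genes over 12 mice after the mean of each strain was removed, as a matrix with the same genes on both axes and color from -1 (blue) to 1 (red). Iyd, Amigo2, Rgs14, Wfs1, Fibcd1 and Bok have positive r with each other, from 0.36 to 0.77, and the row of Pcp4 is negative.

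The genes most like each marker in this strain-centered pattern were taken from 9882 or 9883 genes with clusters above the median mean, so high values of r arise by choice and carry no p. Those most like Bok were C1qbp, a mitochondrial matrix protein (r = 0.95, rho = 0.95), Sdcbp (r = 0.93, rho = 0.94) and Cstf1, an RNA cleavage factor (r = 0.93, rho = 0.93). Those most like Rgs14 were Syt3, a synaptotagmin, Eloa and Wbp11, with r from 0.95 to 0.96. For Iyd they were Sorbs3, Rnf5 and Tcf4 (0.92 to 0.94), for Amigo2 Vstm2a, Slc17a5 and Iqcb1 (0.90 to 0.92), and for Pcp4 Pxk, Ccdc92 and Rcan3 (0.88 to 0.93). For Wfs1 they were Larp1, Drap1 and Foxp4 (0.90 to 0.91), for Fibcd1 Gng7, P3h2 and Lhx9 (0.94 to 0.95), for Pou3f1 Tceal1, Fubp3 and Armc8 (0.90 to 0.91), and for Mpped1 Zmiz2, Zfp57 and Slc30a3 (0.89 to 0.93). Of these lists, none named another of the 9 markers.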

How the data were processed

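RNA of 12 hippocampi was hybridized to Affymetrix Mouse Gene 1.0 ST arrays, 1 per mouse. The authors summarized the probes with PLIER and GC-bin background correction in Affymetrix Power Tools 1.12.0, and the deposited values are linear intensity values, 1 per transcript cluster and array. Array medians ran from 270 to 298, and correlations of log2 values between arrays from 0.988 to 0.995. Platform annotation paired 23410 of 35556 clusters with a gene. To each intensity 16 was added, log2 was taken, and a model with strain as its term was fitted (R 4.3.3; limma 3.58.1, functions lmFit and eBayes), with Benjamini-Hochberg adjustment over the 23410 clusters and a threshold of 0.05. Fold changes are MSN over ICR on the log2(intensity + 16) scale, which understates changes of dim genes. The fit was tested on simulated data, where it called 58.2% of log2 changes of 0.25 and 97.0% of changes of 0.5. Small changes can therefore be missed. Apart from the array medians given beside Iyd, brightness of different clusters was not compared. Precision is limited by 6 arrays per strain. Permutation tests over 6 against 6 mice were exact, and correlations used 100000 resamples within strain, or all orders within 1 strain of 6 mice.

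The members and gene lists were chosen with earlier results of these data known. Named were the 9 markers, the 3 genes most like each by Pearson r among single-gene clusters above the median mean, and of each list up to 3 genes with the smallest p. The neighbors of Bok were named after their values were seen. Of the lists, 125 genes in 19 lists had a cluster of their own, each gene by its brightest cluster. Of these genes 0 passed in limma, against 0.777% of all clusters. An unadjusted p below 0.05 was reached by 12, against 12.7% of all clusters. As alternatives, the intensities were used without log2, with a pseudocount of 1 or 64, after quantile normalization or after scaling to the same median. Trended and robust eBayes, array weights, a block for the replicate number, fits without single arrays, and other sets of clusters (brighter ones only, all 35556, or the brightest of each gene) were also tried.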

Additional observations from a re-analysis of the deposited data

Results flagged for a closer look

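Fibcd1 in MSN mice had 1 sample far from the others. MSN replicate 5 had an intensity of 585, against 662 for the next lowest of the 6 MSN mice, and the gap was 0.679 of the range of the group, past the critical value of Dixon's test at 95%. Among MSN mice the same mouse was also the lowest in Bok, Iyd, Rgs14, Wfs1 and Pou3f1 and the highest in Mpped1, without passing in those genes, and its array had the lowest median intensity, 270. Of 18 groups of 6 examined, 1 was found, and chance gives about 5% of groups.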

How the results depend on the processing

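The fold change of Bok kept its direction in every setting run, while its call was lost under 2 of 11 alternatives and without any of 7 of the 12 arrays. With all clusters tested its log2 fold change was the same 0.36 with an adjusted p = 0.0576, and with the replicate number as a block it was 0.36 with an adjusted p = 0.0940. In both settings 0 of the 9 markers were called. Without single arrays the fold change of Bok ranged from 0.32 to 0.39, its adjusted p from 0.0200 to 0.0753, and the number of markers called from 0 to 1. In the other 9 settings its adjusted p lay between 0.0154 and 0.0495. No other marker was called in any setting. The sign of Mpped1 turned with array weights (-0.016), and without single arrays its log2 fold change ranged from -0.018 to 0.043 and that of Iyd from -0.028 to 0.082. Iyd, Avpr1b and Nts were not tested in the setting with clusters above the median mean only. Over all clusters the number of calls, 182 in the fit reported, was 279 with a pseudocount of 64, 315 with array weights, 42 with the replicate block and 91 to 210 without single arrays. Of those calls 39.0% were higher in MSN mice, against 54.6% with quantile normalization and 56.4% with scaling to the same median. The replicate block changed no other call of a marker. Replicate numbers did not pair the mice: deviations of mice with the same number correlated between -0.13 and 0.13, and 1 of 6 MSN mice correlated best with the ICR mouse of its own number. The number of pairs of markers that varied together was 0 to 2 without single arrays (2 without MSN replicate 2, 1 without MSN replicate 3 and 1 without ICR replicate 2), and 0 within MSN or within ICR mice only. The mean differences of the 3 subfields moved by less than the spread between mice in the 17 alternatives run for them (both pseudocounts, quantile normalization, scaling to the same median, the replicate block and single arrays left out), although that of CA2 was -0.0019 without MSN replicate 1. The causes of these shifts were not tested.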

Other observations

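Markers of other hippocampal and cortical cells also held no call, where 0.777% of all clusters passed in limma and 12.7% had an unadjusted p under 0.05. Of 9 dentate granule cell genes, limma called 0 and 3 were above 0. Lct, a lactase gene used as a marker of granule cells, had the lowest p, with 587 ± 84.4 in MSN mice and 476 ± 66.5 in ICR mice (SD, n = 6 each) and a log2 fold change of 0.29 (unadjusted p = 0.0100, limma, adjusted p = 0.220). Prox1, the transcription factor that sets granule cell identity, was at 0.18 (limma, adjusted p = 0.400). Of 4 subiculum genes limma called 0 and 1 was above 0, the neuropeptide gene Nts at 0.15 (unadjusted p = 0.0211, adjusted p = 0.289). The median log2 fold change of these 4 was -0.05. Of 6 neocortex genes limma called 0 and 1 was above 0, with Tbr1, a transcription factor of deep cortical layers, at -0.16 (adjusted p = 0.501). Of 8 interneuron genes limma called 0 and 3 were above 0, with Npy, a neuropeptide gene, at 0.15 (adjusted p = 0.424). In the neocortex and interneuron lists 0 genes had an unadjusted p under 0.05.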
